A study of Mus musculus with 2 samples.

Results

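The genes described here encode cell adhesion molecules by which oligodendrocytes and axons hold on to each other: the contactins Cntn1 and Cntn2, the contactin partner Cntnap1, the L1 family members Nfasc, Nrcam, L1cam and Chl1, and the neural cell adhesion molecules Ncam1 and Ncam2. Members were taken by the gene name that the array files give a probe. Of the 9 names, 8 were found among 27962 gene names, and 24 probes of 41174 carried them. No probe was named Nrcam, and its values below come from probes listed under an older name.

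Cultured mouse oligodendrocytes were compared with cultured astrocytes, both from strain C57BL/6J and neither treated, to find mRNAs enriched in oligodendrocytes. Each of 2 Agilent arrays held both RNAs, with oligodendrocyte RNA in Cy5 and astrocyte RNA in Cy3 on replicate 1 and the dyes exchanged on replicate 4. Oligodendrocytes came off mixed glial cultures by shaking, and the astrocytes were the cells still attached, kept meanwhile in medium with serum, after microglia had also been shaken off. The series calls its samples independent but names no separate cultures or animals, and p-values cover the spread between these 2 arrays only, which may be technical.

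Where a myelinated axon meets its glia, adhesion molecules come in matched sets. At the paranode, the loops of the oligodendrocyte carry a short form of neurofascin that faces contactin 1 and Cntnap1 on the axon. At the node, the axon carries a longer neurofascin and Nrcam, tied to the spectrin skeleton by ankyrin, and beside the paranode contactin 2 is made by both axon and glia and holds potassium channels in place. L1cam, Chl1 and the Ncam proteins act more broadly, in axon growth, bundling and first contact between axon and glia.

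The probes on which the results turn are shown first, each 60 bases long and read 5′ to 3′ from the array files. Those of Nfasc and L1cam below lie in a stretch where these relatives resemble each other, and capitals mark the bases that are identical in their best ungapped alignment (32 of 49 aligned bases).
Nfasc, 3′ probe: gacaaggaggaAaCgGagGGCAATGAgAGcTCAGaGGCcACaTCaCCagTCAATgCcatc
L1cam: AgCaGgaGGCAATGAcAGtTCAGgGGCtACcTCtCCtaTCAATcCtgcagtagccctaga
Nfasc, 5′ probe: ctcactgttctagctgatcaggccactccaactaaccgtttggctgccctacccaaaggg
The longest run of identical bases between these Nfasc 3′ and L1cam probes was 8, and over all 236 pairs of probes from different members it was 10.

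The Ncam1 probes below read different parts of the transcript. Ncam1 RNA is spliced into a form whose protein is held to the membrane by a lipid and into larger forms that cross it. The first probe reads the end of a transcript record that, as background, is that of the lipid-anchored form, and capitals mark the first stop triplet in the frame of its first base, at bases 52 to 54. The second is 1 of 3 probes that the files describe as the 3′ end of the membrane-spanning forms, called 140 and 180. Then come a probe of the transcript's body, from the same record as the first, and one that crosses the small optional exon called pi.
Ncam1, lipid-anchored end: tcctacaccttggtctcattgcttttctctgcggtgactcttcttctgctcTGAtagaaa
Ncam1, membrane-spanning end: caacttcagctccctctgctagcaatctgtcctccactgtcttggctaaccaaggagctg
Ncam1, body: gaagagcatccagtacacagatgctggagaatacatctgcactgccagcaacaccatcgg
Ncam1, pi exon: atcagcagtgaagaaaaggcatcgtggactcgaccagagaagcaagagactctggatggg

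Of the 8 members tested, Nfasc, Cntn1, Cntn2, Ncam1 and Ncam2 were higher in oligodendrocytes and Chl1 was higher in astrocytes, while Cntnap1 and L1cam were not called; with ratios set to spike-in controls, Ncam1 and Ncam2 changed side. A gene was represented by its brightest probe and called at an adjusted p under 0.05 in limma's test of the log2 ratio against 0. The same test called 41.1% of all 22149 genes (18.5% toward oligodendrocytes, 22.6% toward astrocytes). The member count was thus 5 of 8 on the oligodendrocyte side and 1 of 8 on the astrocyte side. The median log2 ratio was 0.40 over the members and -0.0040 over all genes. In bulk RNA, fewer cells of a type and less RNA per cell cannot be told apart.

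The zero of these ratios is the typical gene, set by loess normalization within each array. The spike-in controls, RNAs added during labelling, had a median log2 ratio of 0.71 toward oligodendrocytes. Set to them, every ratio falls by that amount, and 3 members remained called higher in oligodendrocytes (Nfasc, Cntn1 and Cntn2) and 4 were called higher in astrocytes (Chl1, Ncam2, L1cam and Cntnap1). In that setting 5.95% of all genes were called toward oligodendrocytes and 83.5% toward astrocytes. The median of the members then lay below 0, and that of all genes was -0.71. Differences between genes or probes do not depend on the choice of zero. The p-values with spike-in scaling take the shift of 0.71 as exact. The spread of the controls between arrays or among themselves enters none of them.

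**Figure D1:**
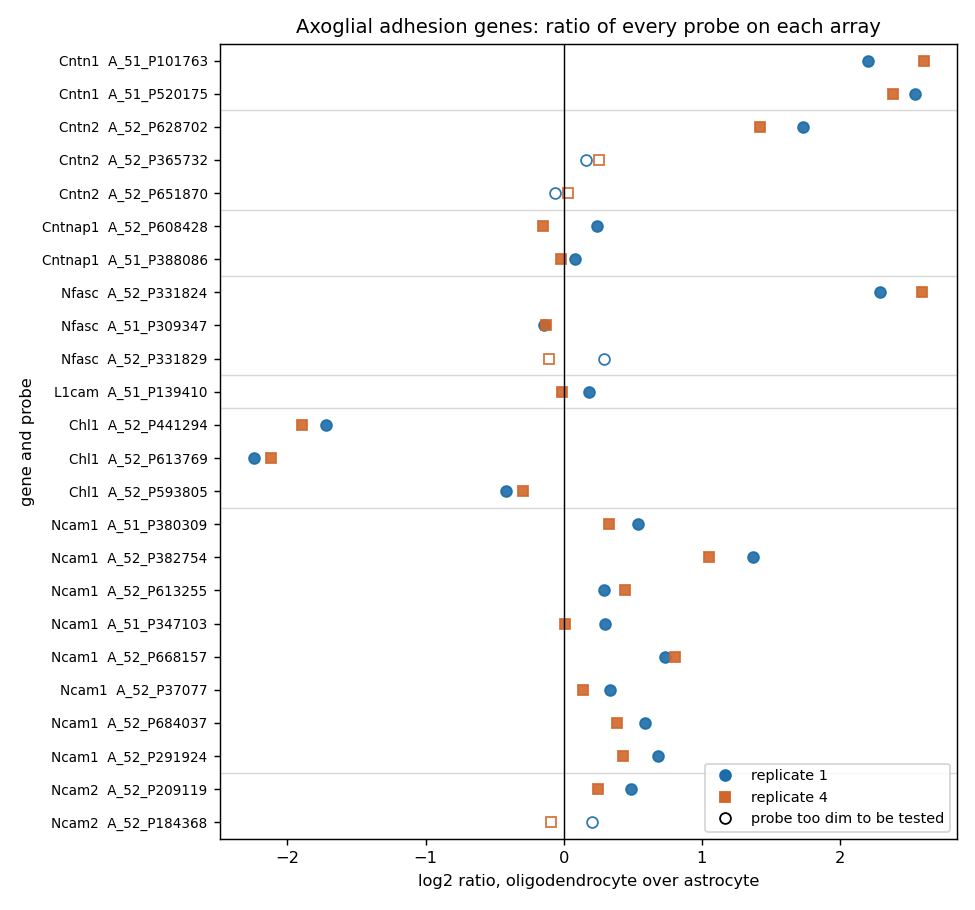
Log2 ratio of oligodendrocyte over astrocyte (horizontal axis) for each of the 24 probes (rows, by gene) on replicate 1 (circles) and replicate 4 (squares); open symbols are the 4 probes too dim to be tested. Both probes of Cntn1 lie above 2 on both arrays, the Nfasc probes lie apart, and the 3 Chl1 probes lie below 0.

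Nfasc, neurofascin, was higher in oligodendrocytes on its brightest probe, at its 3′ end. On replicate 1 this probe read an intensity of 3483 in oligodendrocytes and 348 in astrocytes, and on replicate 4 it read 1454 and 662. Oligodendrocytes were brighter on both arrays, by less on replicate 4, where they carried Cy3. Cy3 was the dimmer dye over all gene spots, with a median intensity of 134 to 150 against 285 to 310 for Cy5. The normalised log2 ratios were 2.29 and 2.60, a mean of 2.44 ± 0.22 (SD, n = 2) or 5.43-fold (limma adjusted p = 5.85e-07). The probe lies in mm7, the build of the array design, on chromosome 1 from 132471355 to 132471414, minus strand. Coding and untranslated positions of the probes were not worked out.

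The other Nfasc probes did not show this difference. The 5′ probe, 37.9 kb upstream of the 3′ probe, read 334 in oligodendrocytes and 186 in astrocytes on replicate 1, and 144 and 374 on replicate 4. Its brighter reading followed the Cy5 dye, not the cell type. Its log2 ratios were -0.14 and -0.13, and it was not called (limma adjusted p = 0.412; 95% interval of the mean -0.39 to 0.12). It was well above background in both cell types, as were 76.6% to 83.9% of gene spots by channel. Its intensities lay near the channel medians of 285, 150, 134 and 310. How well this probe responds to Nfasc RNA was not tested. The remaining probe, 25.3 kb along, was well above background in each cell type on 1 array only and was not tested.

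The difference between both tested Nfasc probes was 2.58 in log2 (limma diffSplice adjusted p = 7.97e-06). This test sets each probe against the other probes of its gene, was chosen after the probes were seen to differ, and called 18% of 17761 probes. With the gene's probes averaged, Nfasc stood at 1.15 in place of 2.44 and was still called. Neurofascin is spliced into glial and axonal forms, and the files do not say which of them each probe reads.

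Cntn1, contactin 1, the lipid-anchored adhesion molecule of the paranode that immature oligodendrocytes also carry, was 5.31-fold higher in oligodendrocytes. Its brighter probe read 13871 in oligodendrocytes and 1405 in astrocytes on replicate 1, and 6011 and 2792 on replicate 4. Log2 ratios were 2.20 and 2.61, a mean of 2.41 ± 0.29 (SD, n = 2; limma adjusted p = 8.45e-07). The other probe, 1.4 kb downstream, read 2.55 and 2.39, and the test of probes against each other made no call (difference 0.058, limma diffSplice adjusted p = 0.931). The brighter probe lies on chromosome 15 from 92420216 to 92420275 in mm7. The ratios of Cntn1 and Nfasc overlapped between the arrays, so their order was not resolved.

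Cntn2, contactin 2, which joins glia to axon beside the paranode, was 2.99-fold higher in oligodendrocytes on the 1 probe bright enough to test. That probe read 802 in oligodendrocytes and 121 in astrocytes on replicate 1, and 318 and 298 on replicate 4. Log2 ratios were 1.73 and 1.42, a mean of 1.58 ± 0.22 (SD, n = 2; limma adjusted p = 8.53e-06). They lay below those of Cntn1 on both arrays. The gap depended on the processing: with an offset of 10 in place of 50 Cntn2 stood at 1.88 and Cntn1 at 2.45. In Feature Extraction's own log ratio they stood at 2.12 and 2.52. The other 2 probes of Cntn2 were dim: 1 was not well above background in any channel, and 1 only in oligodendrocytes on replicate 1. Their ratios, 0.21 and -0.017, were not tested.

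Cntnap1, the axonal partner of contactin 1 at the paranode, was not called. Its brighter probe read 554 in oligodendrocytes and 225 in astrocytes on replicate 1, and 218 and 598 on replicate 4. The brighter channel was Cy5 on both arrays, and the log2 ratios fell on both sides of 0, at 0.24 and -0.15. The mean was 0.048 ± 0.27 (SD, n = 2; limma adjusted p = 0.839), with a 95% interval of -0.26 to 0.35. The other probe of Cntnap1 read 0.034. With spike-in scaling Cntnap1 stood at -0.66 (limma adjusted p = 0.00119; across alternatives, 0.00119 to 1.0).

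**Figure D2:**
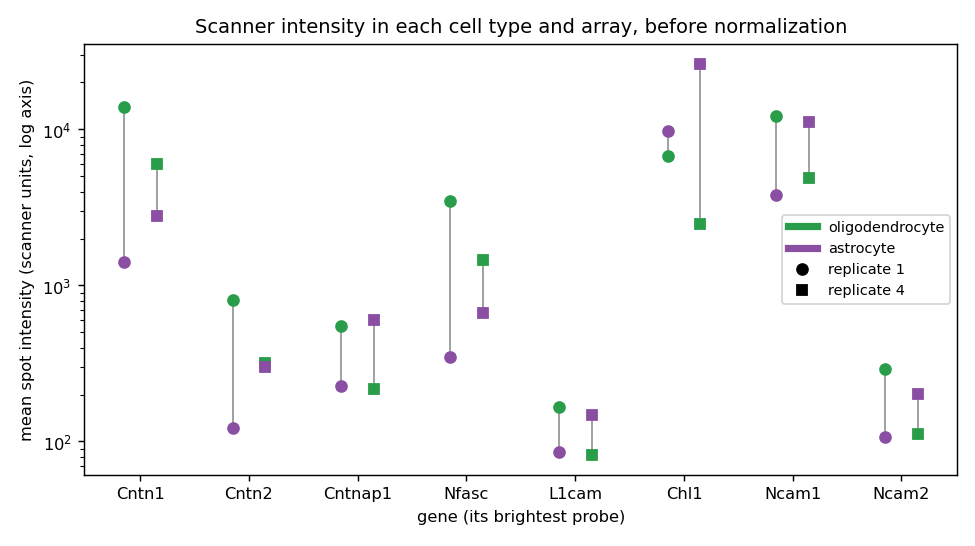
Mean scanner intensity (log axis, before normalization) of the brightest probe of each of the 8 members in oligodendrocytes and astrocytes, with replicate 1 as circles and replicate 4 as squares joined by a line. For Cntn1 and Nfasc the oligodendrocyte point is the upper one on both arrays; for Cntnap1, L1cam, Ncam1 and Ncam2 the upper point changes with the dye.

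Of the other L1 family members, Chl1, the close relative of L1, was higher in astrocytes. Its brightest probe read 6746 in oligodendrocytes and 9831 in astrocytes on replicate 1, and 2470.4 and 26443 on replicate 4. Astrocytes were the brighter cell type on both arrays. Log2 ratios were -1.72 and -1.89, a mean of -1.81 ± 0.12 (SD, n = 2), or 3.50-fold higher in astrocytes (limma adjusted p = 2.45e-06). This probe lies on chromosome 6 from 103824301 to 103824360 in mm7.

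A Chl1 probe 84.5 kb along the gene, where the brightest lies at 88.0 kb, read -2.24 and -2.12 (limma adjusted p = 3.59e-07 in the fit of single probes). The remaining Chl1 probe lies at the 5′ end, at 0 kb, and reads a cDNA record from neonatal cerebellum. It read -0.42 and -0.29 and was called (limma adjusted p = 0.0335), but its oligodendrocyte signal was well above background on 1 array only. With median centring it stood at -0.24 and was not called (limma adjusted p = 1.0). The offset used here pulls ratios of dim probes toward 0: with an offset of 10 this probe stood at -0.68, and in Feature Extraction's own log ratio at -1.55. Its difference from the other Chl1 probes, 1.64 by diffSplice (limma adjusted p = 1.75e-05), fell to 0.46 with that log ratio (limma adjusted p = 0.168; across alternatives, 7.42e-06 to 0.168).

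L1cam, which guides and bundles growing axons, had 1 probe and was not called. It read 166 in oligodendrocytes and 85.2 in astrocytes on replicate 1, and 81.7 and 149 on replicate 4, all well above background but among the dimmest of the members tested. The log2 ratios were 0.18 and -0.013, a mean of 0.084 ± 0.14 (SD, n = 2; limma adjusted p = 0.669; 95% interval -0.19 to 0.36). Its ratio and that of Cntnap1 overlapped. With spike-in scaling L1cam stood at -0.63 (limma adjusted p = 0.000959; across alternatives, 0.000959 to 1.0).

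Nrcam, the nodal relative of neurofascin, could be read through 3 probes that match it by transcript record or older name and lie outside the naming rule. The brightest read 12446 in oligodendrocytes and 6822 in astrocytes on replicate 1, and 5964 and 14865 on replicate 4. Its log2 ratios were -0.32 and 0.22, a mean of -0.054 (limma adjusted p = 0.833 with RefSeq names; 95% interval -0.39 to 0.28). The other probes of Nrcam read 0.14 and -0.14. Nrcam was thus bright in both cultures with no call in either direction at the zero set by loess. Spike-in scaling lowers every ratio by 0.71 and would put the means of all 3 probes below 0. Whether Nrcam would be called in that setting was not worked out.

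Ncam1, the founding neural cell adhesion molecule, had 8 probes, more than any other member, and all 8 had a positive mean ratio, from 0.16 to 1.21. In the fit of single probes 6 of the 8 were called, all toward oligodendrocytes, and 2 stayed uncalled. With median centring 1 of the 8 was called, and with spike-in scaling 6 of the 8 means lay below 0, with 1 called toward oligodendrocytes and 4 toward astrocytes. Over all members, 11 of 20 tested probes were called higher in oligodendrocytes, 3 higher in astrocytes and 6 not called, where limma called 40.4% of all 32637 probes (18.5% higher in oligodendrocytes, 21.8% higher in astrocytes). With median centring 5 of the 20 were called toward oligodendrocytes and 2 toward astrocytes (4.51% and 7.59% of all probes), and with spike-in scaling 5 and 12 (5.26% and 84.7%).

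The brightest Ncam1 probe reads a membrane-spanning 3′ end. It read 12211 in oligodendrocytes and 3792 in astrocytes on replicate 1, and 4865 and 11120 on replicate 4, so the Cy5 channel was the brighter on both arrays. After normalization its log2 ratios were 0.54 and 0.33, a mean of 0.43 ± 0.15 (SD, n = 2) or 1.35-fold (limma adjusted p = 0.0186). Centring each array on its median, without loess, lost the call (0.34, limma adjusted p = 0.907), and spike-in scaling turned the sign (-0.28, limma adjusted p = 0.0575). Across alternatives the adjusted p of limma ran from 0.00297 to 0.907.

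The probe of the lipid-anchored end had the largest ratio of the 8. It read 12185 in oligodendrocytes and 2175 in astrocytes on replicate 1, and 4437 and 6093 on replicate 4. Log2 ratios were 1.37 and 1.05, a mean of 1.21 ± 0.22 (SD, n = 2; limma adjusted p = 3.06e-05). It lies on chromosome 9 from 49492741 to 49492800 in mm7. Counted from the most 5′ probe it stands at 124.4 kb, and the 3 probes of the membrane-spanning ends at 134.6, 136.8 and 139.7 kb. With spike-in scaling it would stand above 0, since its mean exceeds the shift of 0.71.

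The 3 probes of the membrane-spanning ends read mean ratios of 0.43, 0.37 and 0.16. Their average was 0.38 on replicate 1 and 0.26 on replicate 4. The lipid-anchored end probe lay above each of them on both arrays, and above their average by 0.99 on replicate 1 and 0.79 on replicate 4 (mean 0.89 ± 0.14, SD, n = 2). Against all other Ncam1 probes it differed by 0.78 (limma diffSplice adjusted p = 0.000375). With median centring that difference was 0.72 and not called (limma adjusted p = 1.0; across alternatives, 0.000375 to 1.0), a setting in which diffSplice called 200 probes in all, against 3190 as reported.

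The remaining Ncam1 probes lay between these values. The most 5′ probe, 124.4 kb before the lipid-anchored end, reads a cDNA record from whole embryo that the files describe as a hypothetical protein, and stood at 0.77 (limma adjusted p = 0.000401). The body probes stood at 0.49 and 0.56 (limma adjusted p = 0.0082 and 0.00433), and the probe across the pi exon at 0.24 (limma adjusted p = 0.145, not called). With median centring the most 5′ probe and both body probes lost their calls (limma adjusted p = 0.269, 0.649 and 0.516). The second body probe was printed 10 times on each array, which gives the error of a spot: its SD over spots was 0.068 on replicate 1 and 0.054 on replicate 4, with 1 marked spot left out on replicate 4. The means of these spots, 0.68 and 0.43, differed by more than the spread over spots.

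**Figure D3:**
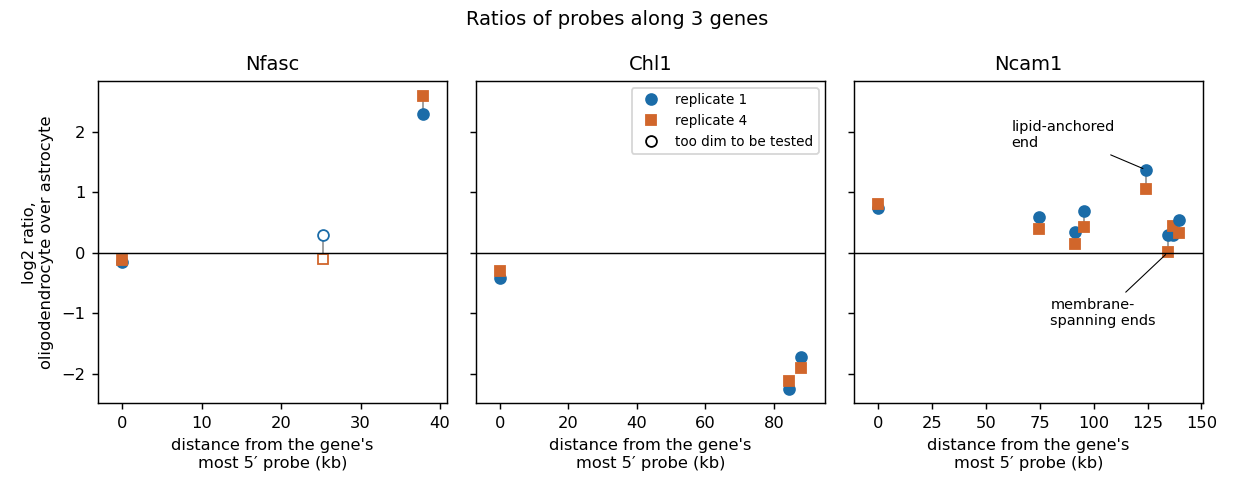
Log2 ratio of each probe of Nfasc, Chl1 and Ncam1 (vertical axis) against its distance in kb from the gene's most 5′ probe in mm7, on replicate 1 (circles) and replicate 4 (squares); open symbols are too dim to be tested. In Nfasc the 3′ probe stands at 2.44 and the 5′ probe at -0.13, and in Ncam1 the probe of the lipid-anchored end stands at 1.21, above the 3 probes of the membrane-spanning ends.

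Ncam2, the relative of Ncam1 best known from olfactory axons, was 1.29-fold higher in oligodendrocytes on its 1 tested probe, and on the other side of 0 with spike-in scaling (-0.34, limma adjusted p = 0.0254). The probe read 289.7 in oligodendrocytes and 107 in astrocytes on replicate 1, and 112 and 200.1 on replicate 4. Its log2 ratios were 0.49 and 0.25, a mean of 0.37 ± 0.17 (SD, n = 2; limma adjusted p = 0.0412). The ratios overlapped those of Ncam1. The call was lost without background subtraction (limma adjusted p = 0.0577) and with median centring (0.758); across alternatives it ran from 0.00156 to 0.758.

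Ordered by ratio, the members ran from Nfasc and Cntn1 through Cntn2, Ncam1, Ncam2, L1cam and Cntnap1 to Chl1. Differences of at least 2-fold on both arrays were seen for 4 of the 8 members (Nfasc, Cntn1, Cntn2 and Chl1), and for 12.4% of all genes. Of the 7 neighbouring pairs in that order, 3 overlapped between the arrays (Nfasc with Cntn1, Ncam1 with Ncam2, L1cam with Cntnap1) and 4 did not.

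**Figure D4:**
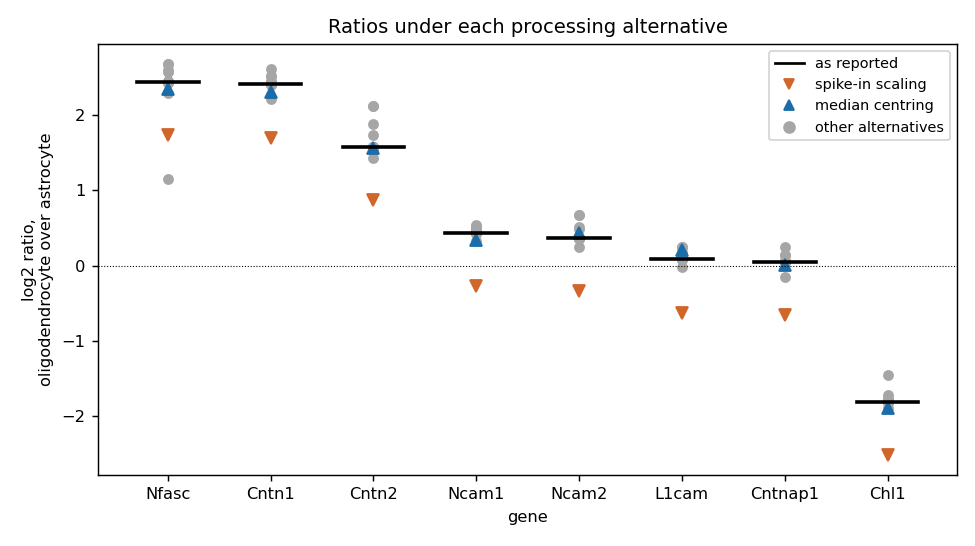
Log2 ratio of each of the 8 members as reported (black bars), with spike-in scaling (downward triangles), with median centring (upward triangles) and under the other alternatives (grey points). Nfasc, Cntn1 and Cntn2 stay above 0 and Chl1 below 0 in every setting run, while spike-in scaling puts Ncam1, Ncam2, L1cam and Cntnap1 below 0.

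The other genes of axon and glia contact were described by 4 lists, whose medians all lay below 0 with spike-in scaling, from -0.64 to -0.43. Relatives of the contactins and of Cntnap1 were mostly not called: calls were made for 2 of 8, 1 on each side. Their median was 0.081, and limma called 18.5% of all genes toward oligodendrocytes and 22.6% toward astrocytes. With median centring 0 and 1 were called (4.99% and 8.45% of all genes), and with spike-in scaling 0 and 7 (5.95% and 83.5%). Cntnap2, which holds potassium channels with contactin 2, was higher in astrocytes at -1.42 ± 0.0084 (SD, n = 2; limma adjusted p = 9.63e-06). Cntn3 was not well above background in astrocytes and stood at least 1.36-fold higher in oligodendrocytes against its measured or floor signal there; its log2 ratio of 0.51 turned sign with spike-in scaling. Contactin 2 and Cntnap2 thus had ratios of opposite sign.

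Partners at the node, paranode and beside it numbered 20, of which limma called 8 toward oligodendrocytes and 5 toward astrocytes, and left 7 uncalled (median 0.066). Over all genes the shares called were 18.5% and 22.6%. The calls were 4 and 1 with median centring (4.99% and 8.45% of all genes) and 4 and 11 with spike-in scaling (5.95% and 83.5%). Lgi3, a secreted partner of the potassium channel complex, stood at 2.55 ± 0.0027 (SD, n = 2), next to Kcna1, the channel subunit itself, at 4.70. Ank3, ankyrin G, which binds neurofascin and Nrcam from inside the cell, stood at 2.33 ± 0.030 (limma adjusted p = 4.81e-07). Those higher in astrocytes included Sptan1, a spectrin, at -1.16 ± 0.56, Lgi4 at -0.55, Ank2 at -0.53 and Lgi2 at -0.43. Gldn, gliomedin, the neurofascin ligand of peripheral nodes, stood at 0.11 and was not called.

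Adhesion molecules of the myelin and axon surface numbered 19, with 9 called toward oligodendrocytes, 2 toward astrocytes and 8 uncalled (median 0.28), where 18.5% and 22.6% of all genes were called. Opcml, 1 of the 9, was not well above background in astrocytes and entered through its oligodendrocyte signal only. With probes required to be well above background in both cell types, 8 were called toward oligodendrocytes. The calls on the 2 sides were 5 and 1 with median centring (4.99% and 8.45% of all genes) and 5 and 10 with spike-in scaling (5.95% and 83.5%). Mag, the myelin-associated glycoprotein that faces the axon along the internode, stood at 4.13 ± 0.19 (SD, n = 2; limma adjusted p = 1.28e-07). Omg, a lipid-anchored glycoprotein of oligodendrocytes and neurons, stood at 2.98 ± 0.083. Of the Cadm proteins, Cadm1 (1.57) and Cadm2 (1.59) were higher in oligodendrocytes, while Cadm4, the glial member that binds axonal Cadm3, stood at -0.27 and Cadm3 at -0.15, neither of them called. The 2 higher in astrocytes were the junction protein Jam2 at -1.77 and Ntm, neurotrimin, at -0.65.

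Ligands, modifiers and signalling partners of the members numbered 21, with 10 called toward oligodendrocytes, 7 toward astrocytes and 4 uncalled (median 0.18), beside the same 18.5% and 22.6% of all genes. The calls were 6 and 4 with median centring (4.99% and 8.45% of all genes) and 6 and 11 with spike-in scaling (5.95% and 83.5%). The sialyltransferases that put polysialic acid on Ncam1 went in opposite directions, St8sia4 at 2.60 ± 0.084 and St8sia2 at -0.82 ± 0.11 (SD, n = 2; limma adjusted p = 2.77e-07 and 0.000452). Dcx, which binds the tail of neurofascin as well as microtubules, stood at 2.06 ± 0.18. Fyn, the kinase by which contactin and Ncam1 signal in oligodendrocytes, stood at 1.35, and Tnr, tenascin R, a ligand of contactins, at 0.87. Ncan, neurocan, a proteoglycan that binds L1cam and Ncam1, stood on the astrocyte side at -1.54, with Fgfr1, a receptor that Ncam1 engages, at -1.35. The 4 not called were Msn, Adam10, Rdx and Ptprz1, a receptor phosphatase that binds Cntn1 and Nrcam.

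**Figure D5:**
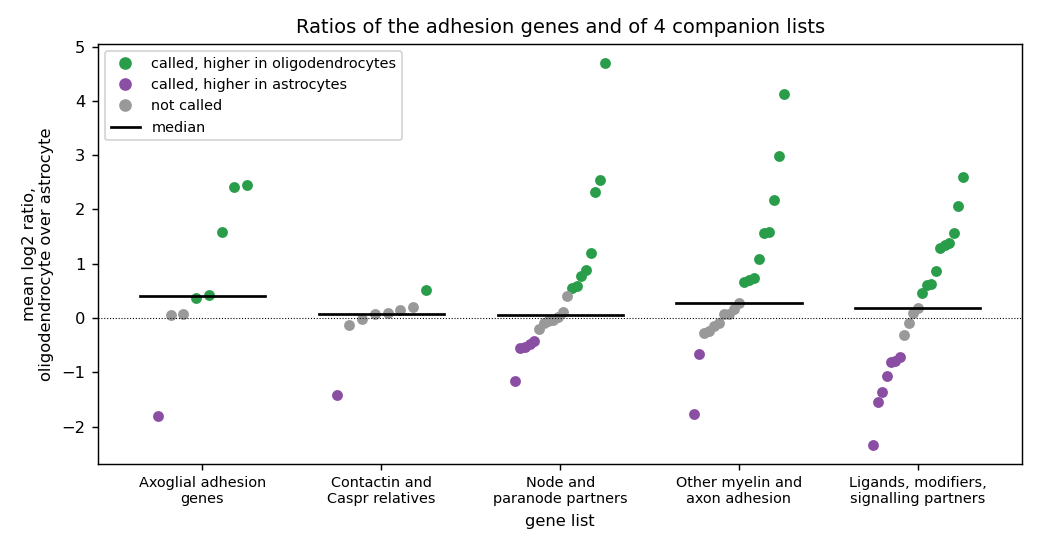
Mean log2 ratio of each gene (points, coloured by limma's call) in the 8 adhesion genes and in 4 companion lists, with the list median as a black line. The medians are 0.40, 0.081, 0.066, 0.28 and 0.18, and each list holds genes called on both sides of 0. Spike-in scaling, not drawn, puts the medians of the 8 adhesion genes and of the 4 companion lists below 0.

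Several of these genes are also made by other cell types whose markers differed between the cultures. All 10 oligodendrocyte markers were called higher in oligodendrocytes (median 3.52) and all 8 astrocyte markers higher in astrocytes (median -3.03). Of all genes, limma called 18.5% toward oligodendrocytes and 22.6% toward astrocytes. Neuron markers were higher in oligodendrocyte cultures for 11 of 17 and higher in astrocyte cultures for 2, with a median of 0.61. Their mean normalised log2 intensity was 9.42 to 9.45 in oligodendrocyte channels and 8.67 to 8.77 in astrocyte channels, and 16 of 17 were well above background in every channel. All 5 precursor markers (median 1.98) and 9 of 10 microglia markers (median 1.18) were also called higher in oligodendrocyte cultures. All 5 ependymal cilia markers tested were higher in astrocyte cultures (median -3.40). Of 9 fibroblast and Schwann-like markers, 5 were higher in oligodendrocyte cultures (median 0.48), among them Ngfr at 2.78 and Col1a1 at 2.69. Spike-in scaling lowers every ratio by 0.71, which would put the medians of the neuron markers and of the fibroblast and Schwann-like markers below 0. The part of these other cell types in the ratios of the adhesion genes was not tested.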

How the data were processed

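Both arrays were read with Agilent Feature Extraction 9.5.3.1, per the file headers. The deposited mean and background intensity per spot and channel carry no normalization. The software's own log10 ratio (red over green) follows its background subtraction and dye correction, per the file headers. The authors' value table holds the same log10 ratios (largest difference 0), dye swap not turned.

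In limma 3.58.1 (R 4.3.3), background was corrected by normexp (offset 50) and dyes by loess, to which control spots gave no weight. Ratios were turned so that oligodendrocytes stood on top, and unmarked spots of a probe were averaged. Tested probes had to be well above background on both arrays in at least 1 cell type: 20 of 24 member probes and 32637 in all, with no saturated spot. Genes were named by the files; list genes and Nrcam were matched through RefSeq tables of GRCm38.p6. lmFit and eBayes were run over 22149 genes, and separately over single probes, with Benjamini-Hochberg adjustment; scripts were tested on simulated data. A fold called at least sets the bright mean against the higher of the dim signal and the lowest signal well above background. Having 2 arrays limits the precision. Both arrays before turning correlated at -0.93 across genes. All members, the 2 largest called ratios per direction of each list and genes behind counts of 5 or fewer are named, except 1 that is not reported here; others were chosen after their values were seen. Members and lists were chosen with earlier results of these data known. Alternatives changed background, offset, ratio source, normalization, filter, marked spots, probe choice, names, prior and zero, or left out an array.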

Additional observations from a re-analysis of the deposited data

How the results depend on the processing

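Nfasc, Cntn1, Cntn2 and Chl1 kept direction and call in the 13 alternatives with a test, and their direction without either array. Nfasc ranged from 1.15 to 2.68, Cntn1 from 1.70 to 2.61, Cntn2 from 0.87 to 2.12 and Chl1 from -2.52 to -1.45. Not all 13 are separate checks. Changing the filter, marked spots, names or prior left these ratios as they were and moved only their p-values. The value table repeats Feature Extraction's log ratio. Ncam1 lost its call with median centring (0.34), as did Ncam2 (0.44); Ncam2 also lost it without background subtraction (0.35). With spike-in scaling Ncam1 (-0.28) and Ncam2 (-0.34) reversed, and Cntnap1 (-0.66) and L1cam (-0.63) were called higher in astrocytes, because that scaling lowers every ratio by 0.71. Members higher in oligodendrocytes numbered 3 with median centring and 3 with spike-in scaling, and those higher in astrocytes 4 with spike-in scaling. All genes higher in oligodendrocytes and in astrocytes numbered 1106 and 1871 with median centring, and 1317 and 18492 with spike-in scaling.

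Contactin and Caspr relatives had a median of 0.16 with an offset of 10, 0.21 with Feature Extraction's log ratio and with the value table, 0.19 with median centring, -0.63 with spike-in scaling, and 0.040 to 0.078 without an array; 0 were higher in oligodendrocytes with median centring, spike-in scaling or the stricter filter and 2 with averaged probes, and 7 were higher in astrocytes with spike-in scaling. By limma as reported 1 was. Node partners had a median of 0.20 with both Feature Extraction ratios, 0.16 with median centring, -0.64 with spike-in scaling and 0.098 to 0.17 without an array, with 4 higher in oligodendrocytes and 1 in astrocytes under median centring and 4 and 11 with spike-in scaling. Other adhesion molecules had 0.62 with both Feature Extraction ratios and -0.43 with spike-in scaling, with 5 and 1 under median centring and 5 and 10 with spike-in scaling. Ligands and partners had -0.0037 with averaged probes and -0.53 with spike-in scaling, with 6 and 4 under median centring and 6 and 11 with spike-in scaling. The cause of these shifts was not tested beyond the construction of spike-in scaling. The brightest Chl1 probe against the other Chl1 probes turned from -0.54 to 0.12 with Feature Extraction's log ratio. Each array sets both cell types against each other, so the reported test of ratios against 0 already uses this pairing. No separate paired analysis was run, and the 2 arrays form 1 group.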

Other observations

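Ezrin, radixin and moesin link the tails of L1cam and its relatives to the actin skeleton. Ezr, ezrin, was higher in astrocytes on both arrays, at -2.24 and -2.41 in log2 (mean -2.33 ± 0.12, SD, n = 2; limma adjusted p = 5.48e-07). Rdx stood at 0.090 and Msn at -0.31, and neither was called. With spike-in scaling Ezr, Rdx and Msn stood at -3.04, -0.62 and -1.02, all called higher in astrocytes. Of the proteases that shed such adhesion molecules, Bace1 stood at 1.56 ± 0.17 and Adam17 at 0.62 ± 0.35, both called higher in oligodendrocytes. Adam10 stood at -0.089 and was not called. Bace2, also listed among the modifiers and partners, was called higher in oligodendrocytes at 0.46 (limma adjusted p = 0.0168). The shift of 0.71 in spike-in scaling would put Bace2 below 0. With spike-in scaling Bace1 stood at 0.85 and was still called, Adam17 stood at -0.089 and was not called, and Adam10, at -0.80, was called toward astrocytes. With median centring Adam17 lost its call (0.51).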
